A study of Mus musculus with 12 samples.

Results

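The genes described here are 39 interferon-induced genes, taken from a list of names and found in the annotation of a mouse expression array. A single-gene probe set, which is a set of array probes that the annotation assigns to 1 gene, was found for 36 of the 39. Of these, 35 had a log2 value above 4 on at least 3 of the 12 arrays and were tested, within 9293 genes tested in all. Mx2 did not pass, with values of 2.23 to 3.85. Isg15 was named only on a probe set shared with Gm9706, and Oas1g and Ifi44 were not analysed here. The rule used gene names and mean levels, not a difference between groups. The list itself was chosen with earlier results of these data known, so its counts beside those of all genes are descriptive.

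The arrays were hybridised with RNA of B220+ B cells sorted from mouse spleen. Deleted cells came from Foxp1flox/del mice and control cells from Foxp1wt/flox mice, so both genotypes carried a flox, or conditional, allele of the forkhead transcription factor gene Foxp1. All mice had a mixed 129/Sv and C57BL/6 strain background. Cells were incubated for 4 h without stimulation or for 4 h with what the labels call IgM, and each of the 4 groups had 3 arrays. The Cre recombinase, the age of the mice and whether the flox allele was recombined are not given in the sources used here. It is not stated if replicates were separate animals or cultures. The p-values therefore reflect spread among these arrays, which may be technical. The purpose named by the series title was to compare expression in stimulated and unstimulated cells lacking Foxp1.

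Type I interferons bind a receptor whose kinases phosphorylate STAT proteins, STAT2 among them. These join IRF9 to form a complex that enters the nucleus and binds interferon-stimulated response elements in the promoters of target genes. The induced proteins detect foreign RNA, block its translation, degrade it or trap virus particles, and some of them damp the signal itself. B cells carry the receptor, keep a low level of this programme without infection, and are activated through their antigen receptor by antibodies to IgM.

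The interferon-stimulated response element holds a core of GAAA, any 2 bases and GAAA. This core was searched on both strands, with overlapping matches allowed, in the 250 bases before each annotated start. Promoter sequences of RefSeq on build GRCm38.p6 were at hand for 30 of the 39 genes. The core was present in 10 of these 30 (33.3%), against 936 of 27025 genes in the whole table (3.46%) and 978 of 32851 promoters (2.98%). Among 7653 tested genes with a promoter sequence the share was 3.32%. The 3 promoters printed here belong to the 3 genes with a core whose log2 change with IgM was largest among those past the threshold in at least 1 genotype. Each is written 5′ to 3′ on the strand of its gene, with the matches in capitals.
Ifit3, chr19:34583333-34583456, plus strand: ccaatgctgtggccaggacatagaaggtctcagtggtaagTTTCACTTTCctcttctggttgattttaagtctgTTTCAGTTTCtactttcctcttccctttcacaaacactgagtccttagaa
Bst2, chr8:71537547-71537642, minus strand: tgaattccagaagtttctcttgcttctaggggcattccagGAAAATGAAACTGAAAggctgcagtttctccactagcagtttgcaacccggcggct
Oas1a, chr5:120907526-120907585, minus strand: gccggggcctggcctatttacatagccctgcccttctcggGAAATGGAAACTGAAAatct
In the Ifit3 promoter both matches lie on the opposite strand and begin 156 and 122 bases before the start. In the Bst2 promoter 2 overlapping matches begin 130 and 124 bases before it, and in the Oas1a promoter 20 and 14 bases before it. A match is a description of letters, and occupancy was not measured.

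The deposited values were on a log2 scale, and array medians lay between 2.45 and 2.49. Precision is limited by the number of arrays. The Foxp1 probe set differed little between genotypes. Its group means over 3 arrays were 12.90 ± 0.55 for control and 12.87 ± 0.53 for deleted cells without IgM (SD), and 12.68 ± 0.53 and 12.65 ± 0.46 with it. Whether it lies inside the deleted exons is not given in the sources used here, so it does not check the genotype labels. Of 10 pan-B markers 9 had a probe set, and none of them lay at or below 4 on all arrays of any group. Arrays of a group correlated at 0.951 or more across tested genes except in deleted cells with IgM, where replicate 3 had an r of 0.817 with 1 array. Replicate 3 also showed the weakest signal of spiked poly-A control RNA, a mean log2 value of 6.42 against 7.40 to 9.79 on the other 11. Values without it, fitted without the replicate block, are given beside the genes whose call changed when it was left out and beside some others that it moved.

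With IgM, interferon-induced genes were lower in control cells. Of the 35 tested, 15 fell and none rose, in limma with Benjamini-Hochberg adjustment over all 9293 genes. Across all tested genes, 20.7% passed in either direction and 12% fell. The median log2 difference of the 35 was -1.19, against -0.05 for all genes, and 34 of the 35 differences were negative. In 20 of the 35 every IgM array lay below every unstimulated array, which held for 24.5% of all genes. Same-numbered arrays of the groups deviated together, so the replicate number was also fitted as a block. With that block 21 of the 35 fell and none rose, against 35.5% of all genes called and 20.0% called lower. When deleted IgM replicate 3, which enters the shared spread, was left out, 20 fell, against 36.1% of all genes called, with Ifit1, Oas1a, Rtp4, Xaf1 and Samd9l added. The count dropped to 8 without control unstimulated replicate 2 and to 9 without control IgM replicate 3.

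Deleted cells moved in the same direction. Of the 35, 10 fell and none rose, against 19.0% of all genes called and 9.21% called lower. The median log2 difference was -0.72, against -0.08 for all genes, and 32 differences were negative. In 15 of the 35 every IgM array lay below every unstimulated array, which held for 17.9% of all genes. With the replicate block 17 fell and none rose, against 36.7% of all genes called and 19.3% called lower. Without deleted IgM replicate 3, 14 fell, and 25.7% of all genes passed. Irf9, Trim30a, Parp9, Herc6 and Trim25 were added and Irf7 was lost. The count dropped to 6 without control unstimulated replicate 2 or control IgM replicate 1, and to 5, 4 and 3 without deleted unstimulated replicate 1, 2 and 3.

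The summed linear level of the 9 pan-B markers was also lower with IgM, at 28000 to 33500 on IgM control arrays against 68200 to 71100 on unstimulated ones. In deleted cells it was 61900 to 67100 without IgM and 29800 to 37200 with it. The sum is weighted to the genes with the highest values, Cd79b, Cd79a and Ms4a1. Of the 9 differences with IgM, 8 were negative in control cells, where 3 fell, against 12% of all genes. In deleted cells 7 were negative and 2 fell, against 9.21% of all genes, and Cr2 rose by 2.21 ± 0.46 (limma adjusted p = 0.00719). In such bulk samples, fewer cells of a type and less RNA per cell cannot be told apart. Plasmacytoid dendritic cells are strong interferon producers, and 9 of 10 of their markers had a probe set. None of these 9 lay at or below 4 on every array of the series. The mean of Lair1 in control cells was 3.67 without and 3.51 with IgM. The summed level of the 9 markers was 13300 to 17300 in control and 13100 to 15000 in deleted cells without IgM, and 7730 to 10000 and 8830 to 9960 with it. This sum mostly reflects Ly6d, Spib and Tcf4, with unstimulated control means of 12.9, 12.2 and 11.2, while Siglech was at 5.44. With IgM 5 of the 9 differences were negative and 4 positive in control cells, where Ccr9 and Klk1 rose and none fell. In deleted cells 6 were negative and 3 positive, and Ly6d fell and Klk1 rose. Of all genes, 20.7% and 19.0% were called in either direction. Among deleted IgM arrays the SD of Ly6d was 1.59, and the SDs of Cd79a and Cd79b were 2.34 and 1.03. In the other groups these SDs were at most 0.48, 0.87 and 0.22. The part of either marker list in the fall of the interferon-induced genes was not tested.

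**Figure D1:**
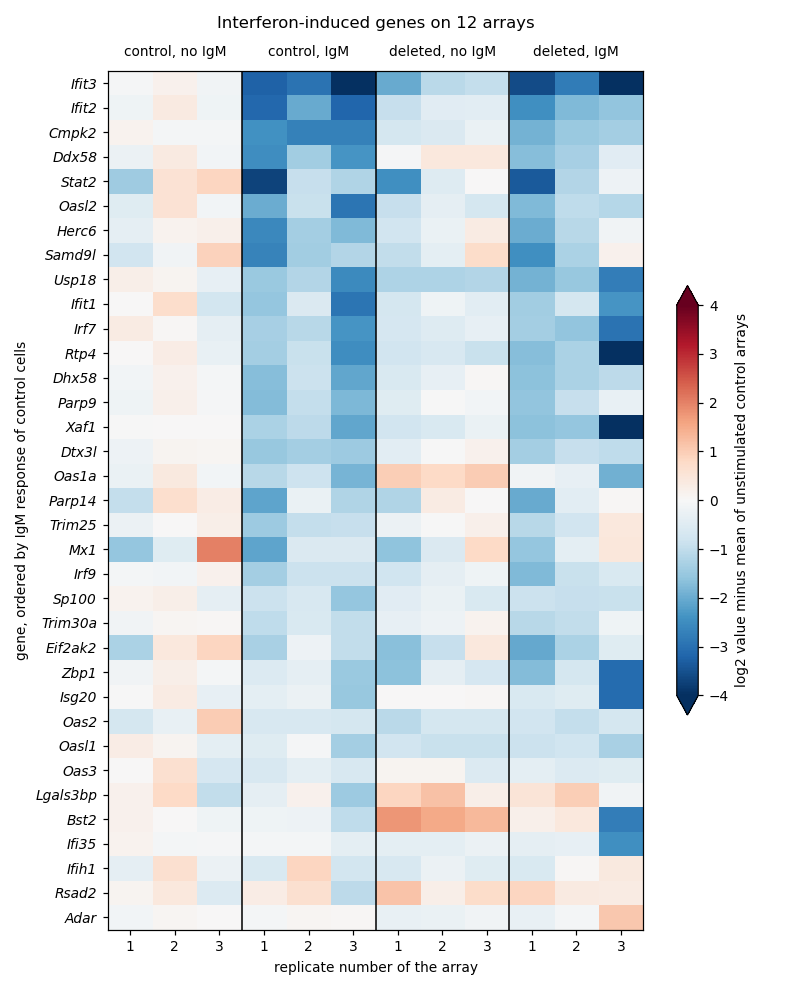
Log2 value of each of the 35 tested interferon-induced genes on each of the 12 arrays, minus the mean of the 3 unstimulated control arrays of that gene. Rows are ordered by the IgM response of control cells, blue is lower and red higher, and colours end at 4 log2 units. The IgM columns of both genotypes are mostly blue, and deleted IgM replicate 3 differs from its group mates in both directions.

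The IFIT proteins bind foreign RNA and hinder its translation, and their genes lie near each other on chromosome 19, with Ifit2 and Ifit3 adjacent. Ifit3 read 10.13, 10.33 and 10.04 on the unstimulated control arrays, in the order of replicates 1 to 3 as in all values that follow, and 6.93, 7.20 and 6.10 with IgM. In deleted cells it read 8.13, 9.09 and 9.20 without and 6.59, 7.37 and 5.69 with IgM. Every IgM array lay below every unstimulated array in both genotypes. Ifit3 fell by 3.42 ± 0.44 log2 units (SE) in control cells, or 10.7-fold, and fell by 2.26 ± 0.44, or 4.78-fold, in deleted cells (limma adjusted p = 0.000493 and 0.00557).

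Ifit2 showed the same order without overlap. Its control values were 9.31, 9.83 and 9.29 without IgM and 6.33, 7.46 and 6.29 with it, and its deleted values were 8.56, 9.02 and 9.06 without and 7.03, 7.71 and 7.90 with IgM. It fell by 2.78 ± 0.35 in control cells (limma adjusted p = 0.000435) and fell by 1.33 ± 0.35 in deleted cells (limma adjusted p = 0.0227). Ifit1 spread more, at 7.07, 7.76 and 6.33 without and 5.51, 6.46 and 4.13 with IgM in control cells. Deleted cells gave 6.35, 6.87 and 6.62 without and 5.65, 6.35 and 4.69 with IgM, and the groups overlapped in both genotypes. Its limma adjusted p was 0.0683 in control and 0.246 in deleted cells, and 0.00375 and 0.0332 with the replicate block, where it passed in both. With deleted IgM replicate 3 left out, its difference in deleted cells went from -1.05 to -0.61 (limma adjusted p = 0.523), and it passed in control cells (limma adjusted p = 0.0379).

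The transcription factors of the pathway were Irf7, which drives interferon genes, and Irf9 and Stat2, which are subunits of the complex that binds response elements. Irf7 read 9.74, 9.46 and 9.05 without and 8.09, 8.29 and 7.06 with IgM in control cells, and 8.74, 8.91 and 9.08 without and 8.07, 7.83 and 6.45 with IgM in deleted cells. The groups did not overlap in either genotype. Irf7 fell by 1.60 ± 0.43 in control and fell by 1.46 ± 0.43 in deleted cells (limma adjusted p = 0.0236 and 0.0384). Without deleted IgM replicate 3, its difference in deleted cells was -0.96, with a limma adjusted p of 0.07.

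Irf9 was lower on all control IgM arrays, at 9.55, 10.06 and 10.05 against 10.85, 10.81 and 11.08 without IgM. It fell by 1.03 ± 0.30 in control cells (limma adjusted p = 0.034). Deleted cells read 10.12, 10.55 and 10.73 without and 9.15, 10.01 and 10.29 with IgM, with overlap, a limma adjusted p of 0.165 and one of 0.0278 with the replicate block. With deleted IgM replicate 3 left out, the limma adjusted p was 0.0476. Stat2 depended strongly on the replicate number: control values were 6.61, 8.62 and 8.89 without and 4.33, 7.10 and 6.84 with IgM, and deleted values 5.59, 7.52 and 8.04 without and 4.67, 6.87 and 7.83 with IgM. Replicate 1 was the lowest in all 4 groups. Its difference in control cells was -1.95 ± 1.02, with a limma adjusted p of 0.222 that became 0.000318 with the replicate block.

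**Figure D2:**
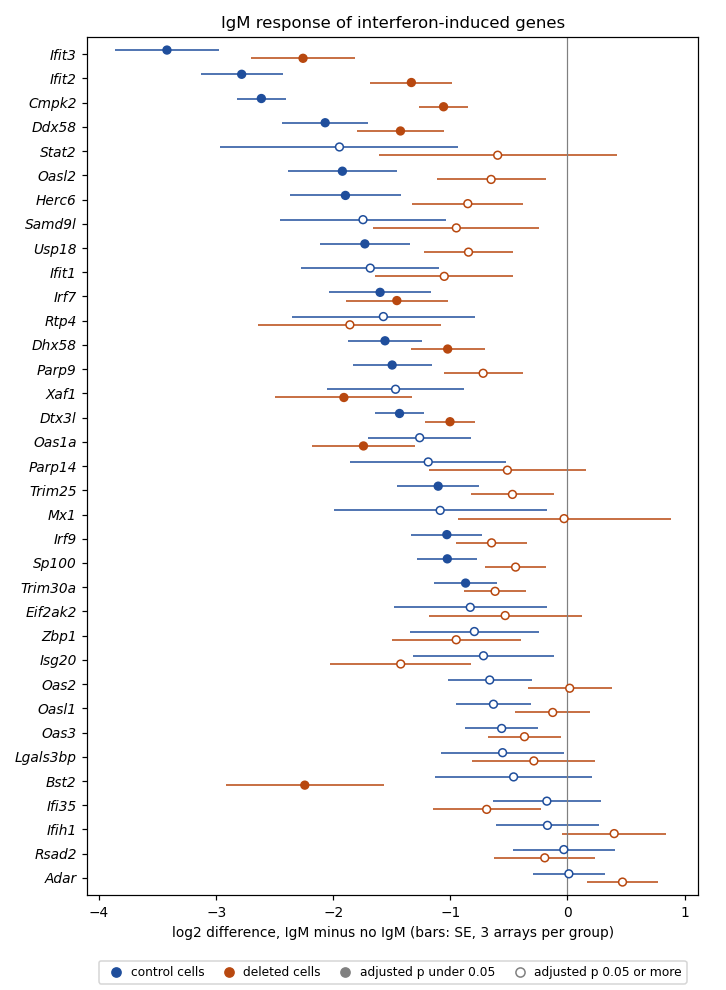
Log2 difference between IgM and no IgM for the 35 tested interferon-induced genes, in control cells (blue) and deleted cells (orange), with 3 arrays per group. Bars are standard errors of the limma fit and filled points have an adjusted p under 0.05; 15 points are filled for control cells and 10 for deleted cells, all left of 0.

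The helicases Ddx58, known as RIG-I, and Ifih1, known as MDA5, sense viral RNA in the cytoplasm, and Dhx58, known as LGP2, modulates both. Ddx58 read 8.14, 8.73 and 8.26 without and 5.90, 6.99 and 6.03 with IgM in control cells, and 8.32, 8.80 and 8.80 without and 6.69, 7.05 and 7.91 with IgM in deleted cells. All IgM arrays lay below all unstimulated arrays of their genotype, and Ddx58 fell by 2.07 ± 0.37 in control and fell by 1.43 in deleted cells ± 0.37 (limma adjusted p = 0.00283 and 0.0212). All 3 of its probe sets fell in both genotypes, with log2 differences of -2.35 to -1.82 in control and -2.14 to -1.43 in deleted cells.

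Dhx58 also fell without overlap. It read 8.23, 8.52 and 8.25 against 6.62, 7.47 and 6.24 in control cells, and 7.73, 7.999 and 8.39 against 6.70, 7.08 and 7.28 in deleted cells. The limma adjusted p-values were 0.00561 and 0.0441, for differences of -1.56 ± 0.32 and -1.02 ± 0.32. Ifih1 did not pass in either genotype, with differences of -0.17 ± 0.44 and 0.40 ± 0.44 and overlapping values.

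A further group handles ISG15, a ubiquitin-like protein that is attached to other proteins during an interferon response. Usp18 removes ISG15 and also inhibits the interferon receptor. It read 9.83, 9.70 and 9.27 without and 8.13, 8.43 and 7.06 with IgM in control cells, where it fell by 1.73 ± 0.38 (limma adjusted p = 0.00901). In deleted cells its unstimulated values were already lower and close together, at 8.38, 8.36 and 8.43, and its IgM values were 7.71, 8.07 and 6.85. Neither genotype showed overlap, but in deleted cells the difference of -0.85 ± 0.38 had a limma adjusted p of 0.154, and of 0.0339 with the replicate block. Without deleted IgM replicate 3 it was -0.50 (limma adjusted p = 0.36).

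Herc6 is a ligase that attaches ISG15 in mice. Its control values were 6.94, 7.46 and 7.53 without and 4.74, 5.95 and 5.55 with IgM, and it fell by 1.90 ± 0.47 (limma adjusted p = 0.0161). Its deleted values were 6.55, 7.05 and 7.65 without and 5.33, 6.19 and 7.16 with IgM, which overlapped, with a limma adjusted p of 0.241 and of 0.0339 with the replicate block. With deleted IgM replicate 3 left out, it fell by 1.32 there (limma adjusted p = 0.0491). Trim25, a ubiquitin ligase that acts on RIG-I, fell by 1.10 ± 0.35 in control cells (limma adjusted p = 0.0476). That call was lost when every probe set was tested, at 0.0519, and in deleted cells the difference was -0.47 ± 0.35. Without deleted IgM replicate 3 Trim25 fell by 0.92 in deleted cells (limma adjusted p = 0.015).

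The OAS enzymes detect double-stranded RNA and make short oligoadenylates that activate a ribonuclease, while Oasl1 and Oasl2 belong to the OAS-like branch of the family. Oasl2 fell in control cells by 1.92 ± 0.47 (limma adjusted p = 0.0138), from 7.28, 8.33 and 7.65 to 5.78, 6.87 and 4.83. Values in deleted cells were 6.83, 7.40 and 7.04 without and 5.98, 6.72 and 6.62 with IgM, again without overlap, and its difference of -0.65 ± 0.47 did not pass. Oas1a read 7.48, 8.15 and 7.64 without and 6.64, 6.94 and 5.91 with IgM in control cells, and 8.74, 8.57 and 8.79 without and 7.62, 7.42 and 5.82 with IgM in deleted cells.

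Oas1a was thus lower on every IgM array of each genotype. It fell by 1.74 ± 0.44 in deleted cells (limma adjusted p = 0.0189). In control cells its difference was -1.26 ± 0.44, with a limma adjusted p of 0.0669 that became 0.0232 with the replicate block. With its lowest array, deleted IgM replicate 3, left out, Oas1a fell by 1.18 in deleted cells (adjusted p = 0.0166 in limma), and it passed in control cells (adjusted p = 0.00486 in limma). Oas2, Oas3 and Oasl1 did not pass in either genotype, and Oas3 was above 4 on only 4 of the 12 arrays.

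Parp9 and Dtx3l form an ADP-ribosyltransferase and ubiquitin ligase pair, and their genes lie side by side on chromosome 16 next to Parp14. Parp9 read 10.46, 10.85 and 10.58 without and 8.90, 9.68 and 8.83 with IgM in control cells, and 10.15, 10.62 and 10.53 without and 9.06, 9.72 and 10.35 with IgM in deleted cells. It fell by 1.50 ± 0.34 in control cells (limma adjusted p = 0.00988). In deleted cells its difference was -0.72 ± 0.34, with overlap, and without deleted IgM replicate 3 it fell by 1.04 (limma adjusted p = 0.0298). Dtx3l read 9.99, 10.32 and 10.29 against 8.68, 8.85 and 8.76 in control cells and 9.78, 10.19 and 10.37 against 8.85, 9.28 and 9.19 in deleted cells.

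Dtx3l thus separated fully in both genotypes, and it fell by 1.43 ± 0.21 and fell by 1.003 ± 0.21 (limma adjusted p = 0.00101 and 0.00804). Parp14, another ADP-ribosyltransferase, read 9.67, 11.30 and 10.93 without and 8.53, 10.37 and 9.43 with IgM in control cells, with replicate 1 lowest both times. Its limma adjusted p was 0.259, and 0.00498 with the replicate block. In deleted cells it read 9.42, 10.97 and 10.66 without and 8.62, 10.21 and 10.69 with IgM and did not pass in either fit.

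Cmpk2, a mitochondrial nucleotide kinase, and Rsad2, which encodes viperin and makes an antiviral nucleotide, are adjacent on chromosome 12 with no protein-coding gene between them. Their values differed. Cmpk2 read 8.50, 8.27 and 8.28 without and 5.93, 5.63 and 5.64 with IgM in control cells, and 7.64, 7.77 and 8.08 without and 6.46, 6.85 and 7.002 with IgM in deleted cells. It fell by 2.61 ± 0.21, or 6.12-fold, and fell by 1.06 ± 0.21, or 2.08-fold (limma adjusted p = 3.73e-05 and 0.00597). Rsad2 read 8.44, 8.75 and 7.78 without and 8.64, 8.96 and 7.29 with IgM in control cells, and 9.47, 8.56 and 9.05 without and 9.17, 8.68 and 8.64 with IgM in deleted cells.

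The Rsad2 groups overlapped in both genotypes, with differences of -0.03 ± 0.43 and -0.19 ± 0.43. Its other 2 probe sets gave -0.13 and -0.05 in control cells and 0.18 and -0.11 in deleted cells. The core element was found in the Rsad2 promoter and not in the Cmpk2 promoter. Isg20, a ribonuclease that degrades viral RNA, read 8.39, 8.74 and 8.07 without and 8.01, 8.15 and 6.88 with IgM in control cells, and 8.43, 8.43 and 8.46 without and 7.80, 7.92 and 5.32 with IgM in deleted cells. Its adjusted p in deleted cells was 0.127 in limma and 0.0337 with the replicate block, and deleted IgM replicate 3 lay 2.54 below the mean of its 2 group mates. Without that array the difference went from -1.42 to -0.58 (limma adjusted p = 0.267).

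**Figure D3:**
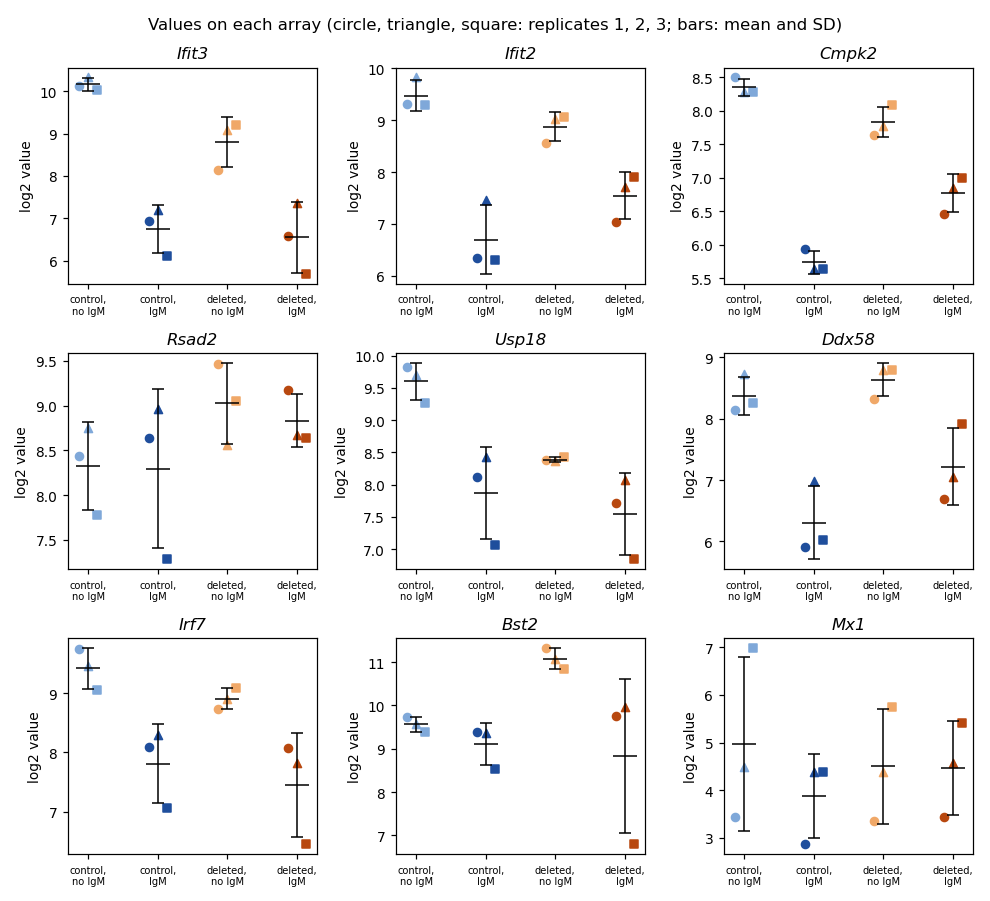
Log2 values of 9 interferon-induced genes on every array, by genotype and IgM; symbols mark replicates 1, 2 and 3, and black bars give the mean and SD of 3 arrays. Ifit3, Ifit2, Cmpk2, Usp18, Ddx58 and Irf7 separate by IgM in both genotypes, Rsad2 does not, and Mx1 follows the replicate number. Vertical axes differ between panels and do not start at 0.

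Bst2, or tetherin, holds budding virus particles at the cell surface. It read 9.74, 9.57 and 9.38 without and 9.39, 9.37 and 8.54 with IgM in control cells, and 11.33, 11.07 and 10.85 without and 9.76, 9.97 and 6.79 with IgM in deleted cells. All 3 unstimulated deleted arrays were above the other 9, and deleted IgM replicate 3 was the lowest of all. Bst2 fell by 2.24 ± 0.67 in deleted cells (limma adjusted p = 0.0395), and fell by 1.22 ± 0.27 without that array (limma adjusted p = 0.00907). In control cells its difference was -0.46 ± 0.67 (limma adjusted p = 0.725).

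Xaf1 encodes a protein that promotes cell death by antagonising an apoptosis inhibitor. It read 10.18, 10.20 and 10.22 without and 8.95, 9.14 and 8.12 with IgM in control cells, and 9.44, 9.61 and 9.94 without and 8.57, 8.65 and 6.03 with IgM in deleted cells, with no overlap in either. It fell by 1.91 ± 0.59 in deleted cells (limma adjusted p = 0.0432) and fell by 1.05 ± 0.28 without deleted IgM replicate 3 (limma adjusted p = 0.0205). In control cells the difference of -1.47 ± 0.59 did not pass (limma adjusted p = 0.106), and it passed at 0.0015 in limma without that deleted array, which no longer added to the shared spread.

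Rtp4 read 9.70, 9.83 and 9.57 without and 8.77, 9.21 and 5.55 with IgM in deleted cells, against 10.49, 10.77 and 10.17 without and 9.12, 9.60 and 7.99 with IgM in control cells. Deleted IgM replicate 3 lay 3.44 below the mean of its 2 group mates, the widest gap among the 35. Its limma adjusted p was 0.125 in deleted cells, and 0.0326 with the replicate block. Without that array its difference in deleted cells went from -1.86 to -0.71 (limma adjusted p = 0.236), and in control cells, where it was -1.57 in both fits, the limma adjusted p went from 0.198 to 0.00743. Among the other nuclear and membrane proteins, Sp100, a component of nuclear bodies, fell by 1.03 ± 0.26 in control cells (limma adjusted p = 0.0165), and Trim30a, a ubiquitin ligase, fell by 0.87 ± 0.27 (limma adjusted p = 0.0405). Neither passed in deleted cells, but without deleted IgM replicate 3 Trim30a fell by 0.91 there (limma adjusted p = 0.00695).

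Some genes followed the replicate number more than the group. Samd9l, an antiviral and growth-restraining protein, read 9.92, 10.55 and 11.62 without and 8.01, 9.31 and 9.53 with IgM in control cells, and 9.70, 10.30 and 11.42 without and 8.26, 9.45 and 10.87 with IgM in deleted cells. Replicate 1 was lowest and replicate 3 highest in all 4 groups. The limma adjusted p of Samd9l was 0.113 in control and 0.38 in deleted cells, and 0.000729 and 0.0163 with the replicate block. Without deleted IgM replicate 3 the limma adjusted p was 0.0479 in control and 0.114 in deleted cells, where the difference went from -0.95 to -1.62.

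Mx1, a GTPase that blocks influenza virus, had the same order of replicates: 3.43, 4.48 and 6.98 without and 2.87, 4.38 and 4.39 with IgM in control cells, and 3.36, 4.39 and 5.75 without and 3.43, 4.57 and 5.41 with IgM in deleted cells. It was above 4 on 8 of 12 arrays and did not pass in any comparison in either fit. Adar, which edits adenosine to inosine in double-stranded RNA, had differences of 0.01 ± 0.31 and 0.47 ± 0.31, and Ifi35 of -0.18 ± 0.46 and -0.69 ± 0.46. With deleted IgM replicate 3 left out, the deleted-cell differences were 0.045 for Adar and 0.015 for Ifi35. Eif2ak2, the kinase PKR that halts translation, and Zbp1, a sensor of Z-form nucleic acids, were negative in both genotypes and did not pass. Among 16 tested members with more than 1 probe set past the filter, signs agreed between probe sets for 15 in control and 13 in deleted cells. Adar was the exception in control cells, and Rsad2, Eif2ak2 and Adar in deleted cells.

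The IgM differences of the genotypes were taken from separate arrays, but their tests are not independent. Both tests took their spread from the same fit over all arrays, and same-numbered arrays deviated together. Ifit2, Ifit3, Cmpk2, Ddx58, Dhx58, Dtx3l and Irf7 fell in both genotypes. They were 7 of the 15 genes that fell in control cells (46.7%) and of the 10 that fell in deleted cells (70.0%). The overlap among all genes is not given here, so these shares are descriptive. Of the 35, 17 passed in neither. With the replicate block 13 genes were shared, 61.9% of the 21 in control cells and 76.5% of the 17 in deleted cells. A call in one genotype and not the other does not show a difference, which was tested as an interaction.

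The log2 difference with IgM was less negative or more positive in deleted than in control cells for 27 of the 35, and the median interaction was 0.54 log2 units, against 0.07 for all genes. No interferon-induced gene passed this test in limma, with 0.108% of all genes called, nor with the replicate block, with 0.172% called. At an unadjusted p under 0.05 there were 2. Cmpk2 was nearest, at 1.56 ± 0.30 (limma adjusted p = 0.184, and 0.0943 with the replicate block). It passed at 0.00444 when limma weighted arrays by quality, and its adjusted p over all alternatives ran up to 0.977. The other was Ifit2, at 1.45 ± 0.50 with a limma adjusted p of 0.898.

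**Figure D4:**
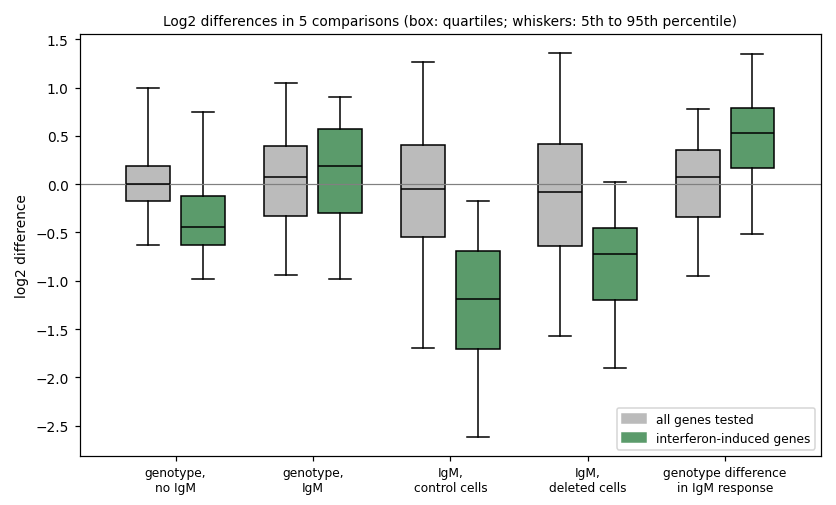
Log2 differences of the 35 tested interferon-induced genes (green) and of all 9293 genes tested (grey) in the 5 comparisons; boxes give quartiles, lines medians and whiskers the 5th and 95th percentiles. The green boxes lie below 0 for both IgM comparisons, with medians of -1.19 and -0.72, and above 0 for the genotype difference in the IgM response.

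Without IgM, most interferon-induced genes were slightly lower in deleted than in control cells, but none passed the test. Of the 35, 29 differences were negative, with a median of -0.44 against 0.00 for all genes. In limma 0 were called, against 2.85% of all genes, and 6 had an unadjusted p under 0.05. With the replicate block 3 passed, against 6.89% of all genes: Stat2 and Usp18 were lower and Lgals3bp higher. Array quality weights gave 5 calls, against 9.11% of all genes, and leaving out deleted IgM replicate 3 gave 1, Bst2, against 5.93%.

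The 4 genes with the smallest p without IgM were Usp18, Ifit3, Oasl1 and Cmpk2. In all 4 every deleted array lay below every control array, which held for 11 of the 35 and for 8.55% of all genes. Usp18 differed by -1.21 ± 0.38 (limma adjusted p = 0.169, and 0.027 with the replicate block), and Ifit3 by -1.36 ± 0.44 (limma adjusted p = 0.187). Oasl1, which restrains Irf7 translation, read 8.61, 8.43 and 7.93 in control and 7.55, 7.43 and 7.43 in deleted cells, a difference of -0.86 ± 0.32 (limma adjusted p = 0.286). Cmpk2 differed by -0.52 ± 0.21 (limma adjusted p = 0.363).

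Stat2 was lower in each same-numbered pair without IgM. Its mean log2 difference was -0.99, and its limma adjusted p was 1, or 0.0391 with the replicate block. Lgals3bp, a secreted glycoprotein, was higher in deleted cells in 3 of 3 pairs both times. It read 8.93, 9.54 and 7.76 in control and 9.60, 9.91 and 8.96 in deleted cells without IgM, and 8.38, 8.91 and 7.28 in control and 9.27, 9.73 and 8.61 in deleted cells with it. Its limma adjusted p was 0.925 without and 0.429 with IgM, and 0.0441 and 0.0148 with the replicate block.

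Bst2 and Oas1a were higher on every unstimulated deleted array than on any unstimulated control array, which held for these 2 of the 35 and for 10.3% of all genes. Bst2 differed by 1.52 ± 0.67 (limma adjusted p = 0.448). Without deleted IgM replicate 3, which widens the spread shared by all groups, the same difference had a standard error of 0.24 and a limma adjusted p of 0.0053. Oas1a differed by 0.94 ± 0.44 (limma adjusted p = 0.506).

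With IgM the differences between genotypes centred near those of all genes. The median over the 35 was 0.19, against 0.08, and 22 were positive. It turned to -0.03 with array quality weights and to -0.04 without the arrays numbered 3. Cmpk2 alone passed, against 1.72% of all genes, and with the replicate block Cmpk2 and Lgals3bp passed, against 6.76%. Cmpk2 was higher on all 3 deleted arrays, by 1.04 ± 0.21 or 2.05-fold (limma adjusted p = 0.0348). Its adjusted p over all alternatives ran from 0.00139 to 0.622, and it was at 0.05 or above without any single array of the control groups, without deleted IgM replicate 2, and without deleted unstimulated replicate 1 or 2. Its log2 difference without any 1 of those arrays was 0.98 to 1.13.

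Summed levels of markers of other cells were also set side by side between the genotypes, and the sums were not tested. Neutrophil markers, 7 of 10 with a probe set, summed to 283 to 2450 on unstimulated control and 2620 to 18700 on unstimulated deleted arrays, and to 202 to 1360 and 1690 to 10900 with IgM. None of the 7 lay at or below 4 on every array of the series. Ltf and Camp had means below 4 in both control groups, with Ltf at 2.58 ± 0.24 without and 2.59 ± 0.04 with IgM (SD). Natural killer cell markers, 8 of 9 with a probe set, summed to 352 to 1830 and 981 to 2900 without IgM, and to 236 to 1200 and 379 to 1880 with it. Macrophage and monocyte markers, all 13 with a probe set and 6 of them at or below 4 on all arrays of every group, summed to 2750 to 5030 and 3280 to 7710 without IgM, and to 1190 to 2790 and 1990 to 5900 with it. In control cells this sum mostly reflects Mpeg1, at a mean of 11.7 without and 10.6 with IgM, against 7.63 and 7.19 for Lyz2. Of the 7 tested without IgM, 5 differences were positive and 2 negative, with a median of 1.86, and Mpeg1 differed by -0.11 ± 0.41. Csf1r was higher in deleted cells, by 3.69 ± 0.72 (limma adjusted p = 0.0199). Adgre1 was lower, with a difference of -1.45 ± 0.31 (limma adjusted p = 0.0334). Of the 9 plasmacytoid dendritic cell markers tested without IgM, 5 differences were positive and 4 negative, with a median of 0.17, and none passed in limma, with 3 at an unadjusted p under 0.05. With the replicate block Siglech, Ccr9 and Lair1 passed, against 6.89% of all genes. They were higher in deleted cells by 1.27, 1.01 and 1.50 (limma adjusted p = 0.0442, 0.0186 and 0.00671 with the block). Erythroid markers, 3 of 5 at or below 4 on all arrays, summed to 92.1 to 124 in control and 153 to 2160 in deleted cells without IgM. Platelet markers, 2 of 4 at or below 4 on all arrays, summed to 31.7 to 97.7 and 155 to 298. T cell markers, with Cd4, Cd8a, Cd8b1 and Thy1 at or below 4 on all arrays, summed to 147 to 365 and 274 to 733 without IgM, and conventional dendritic cell markers to 220 to 275 and 192 to 290. Without IgM no neutrophil, T cell, conventional dendritic cell, erythroid or platelet marker passed in limma, against 2.85% of all genes. Among natural killer cell markers Klrk1 alone passed, higher by 1.56 ± 0.28 (limma adjusted p = 0.0141). With the replicate block at least 1 marker of each of these lists was called higher in deleted cells. A lower call was made for 1 macrophage and 1 conventional dendritic cell marker, and 6.89% of all genes were called. The part of these markers in the genotype differences of Bst2, Oas1a, Lgals3bp and Cmpk2 was not tested.

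**Figure D5:**
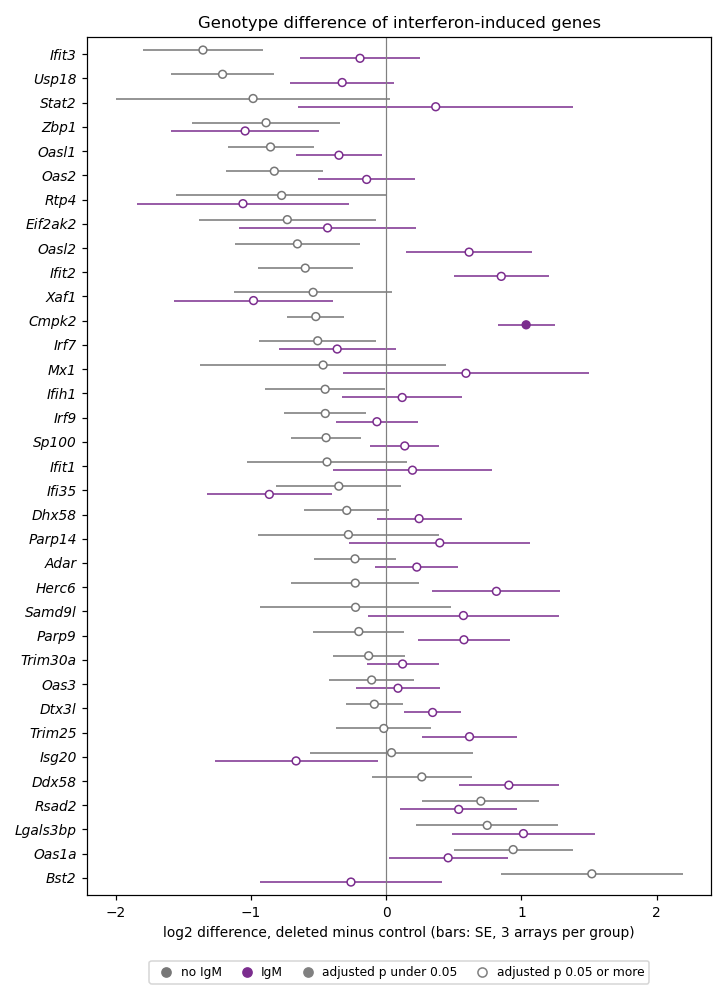
Log2 difference between deleted and control cells for the 35 tested interferon-induced genes, without IgM (grey) and with IgM (purple), with 3 arrays per group. Bars are standard errors of the limma fit and filled points have an adjusted p under 0.05; the only filled point is Cmpk2 with IgM, at 1.04.

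Members with and without the response element core were set side by side, with no test of the difference. In control cells the median log2 difference was -1.07 for the 8 tested members with a core and -1.10 for the 19 without. In deleted cells it was -0.84 and -0.69. Of the 15 genes that fell in control cells, 2 had a core, 10 had none, and the promoters of the other 3 were not analysed here.

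Other genes of the pathway were taken from lists drawn up with these results known. Among 74 further interferon-induced genes, 58 were tested. In control cells 18 of them fell with IgM and none rose, against 12% of all genes called lower, and in deleted cells 14 fell and none rose, against 9.21%. The medians were -0.94 and -0.58, against -0.05 and -0.08 for all genes. The furthest in control cells were Ifit1bl1 at -4.01 ± 0.31, Slfn1 at -3.51 ± 0.60, Slfn5 at -2.57 ± 0.60 and Trim34a at -2.49 ± 0.33. In deleted cells they were Epsti1 at -2.43 ± 0.28, Trim34a at -2.10 ± 0.33, Psmb10 at -2.03 ± 0.57 and Ifit1bl1 at -1.99 ± 0.31. Ifit1bl1 was higher in deleted cells, by 2.05 without and 4.08 with IgM (limma adjusted p = 0.00411 and 0.000324).

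Of 18 interferon ligands 1 was tested, Ifng, which encodes type II interferon. It rose with IgM in control cells, by 1.40 ± 0.41 (limma adjusted p = 0.0339). Its mean difference in deleted cells was -0.05 ± 0.41, with same-numbered pairs at 0.60, 0.45 and -1.19 for replicates 1, 2 and 3. The interaction of -1.44 ± 0.58 did not pass (limma adjusted p = 0.951). Levels of Ifng were low, with means of 4.27 without and 5.66 with IgM in control cells and 4.08 and 4.04 in deleted cells. Among 8 tested receptor chains and kinases, 3 fell in control cells and 4 in deleted cells, against 12% and 9.21% of all genes called lower. These included both chains of the type II receptor, Ifngr1 and Ifngr2, at -1.13 and -1.35 in control and -0.76 and -0.91 in deleted cells. The kinase gene Jak1 fell too, at -1.11 and -0.81.

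Of 16 signalling factors tested, 3 rose and 2 fell in control cells, and 3 rose and 1 fell in deleted cells. These counts are close to the 20.7% and 19.0% of all genes called in either direction. Irf4, a factor of B cell activation, rose by 1.11 in control and 1.82 in deleted cells, and without IgM it was lower in deleted cells, at -0.89 ± 0.18 (limma adjusted p = 0.0234). Irf2, a repressor of interferon-induced genes, fell in both, at -1.87 and -1.42. Of 13 tested sensors and adaptors 2 fell in control cells, and in deleted cells 2 fell and 1 rose, also near those shares. The DNA-sensing adaptor Sting1 had differences of -3.09 ± 0.22 and -2.31 ± 0.22, and Unc93b1, which carries Toll-like receptors to endosomes, of -1.42 and -1.21. Between genotypes with IgM, Sting1 alone of the 13 passed, against 1.72% of all genes. It was higher in deleted cells, by 1.11 ± 0.22 (limma adjusted p = 0.0335). In deleted cells Tlr7 rose, by 1.46 ± 0.39 (limma adjusted p = 0.0253).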

How the data were processed

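RNA of 12 samples was measured on Affymetrix arrays. The deposited log2 values were made by the authors with GCRMA, which corrects background, normalizes by quantiles and summarises probe sets, per the submitters' processing notes; its version and build are not given in the sources used here. Quantile normalization sets array distributions equal, so values are relative to each array. Values near the common floor of 2.23 have no order, and a change from there is understated.

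Groups came from the labels. Probe sets naming 1 gene (34945 of 45101) were kept where 3 or more arrays exceeded a log2 value of 4, and each gene took the one with the highest mean over 12 arrays. Gene symbols were updated through a RefSeq table of GRCm38.p6. Group differences were estimated in R 4.3.3 by limma 3.58.1 (lmFit with 4 group means, contrasts.fit, eBayes; two-sided, Benjamini-Hochberg over 9293 genes, threshold 0.05), and the scripts were tested on simulated data. "Rose", "fell" and "passed" refer to that threshold, and errors of differences are standard errors.

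Replicate numbers recur in every group. Deviations from the group mean correlated at 0.17 to 0.85 between arrays of the same number in every pair of groups compared. The main fit did not pair arrays by number, because the labels do not say that it marks a shared animal or day. A fit with the number as a block is given beside it, as counts and for named genes whose call it changed.

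Alternatives changed the filter, probe set choice, variance model, array weights, array medians, arrays fitted and arrays left out. The members, role groups and other lists were chosen with earlier results of these data known. Genes given on every array were up to 10 past the threshold per comparison, the 4 with the smallest p where none passed, and those whose call the block changed. Other genes of the pathway were named up to 4 per list. T cell, macrophage, conventional dendritic cell, erythroid and platelet markers were also summed.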

Additional observations from a re-analysis of the deposited data

How the results depend on the processing

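No result reversed direction past the threshold. With the replicate block, calls among the 35 genes went from 0 to 3 for the genotype difference without IgM, from 1 to 2 with IgM, and from 10 to 17 for IgM in deleted cells. Of the genes named with a test, the replicate block ended no call. Without a filter on low values, 9 fell with IgM in control and 3 in deleted cells, where the larger number of genes tested enters the adjustment. Fitting only the arrays compared gave 2 calls for the genotype difference without IgM, 0 with IgM and 0 for IgM in deleted cells. Array weights gave 5 calls for the genotype difference without IgM and 1 for the interaction. For the genotype difference with IgM, 0 were called with the most variable probe set and 0 with array medians set equal. The cause of these changes was not tested.

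Leaving out each array or replicate number in turn gave 0 to 3 calls for the genotype difference without IgM, 0 to 1 with IgM, 3 to 20 for the IgM response of control cells and 0 to 14 for that of deleted cells. These fits have fewer samples. The median difference ran from -0.49 to -0.26 between genotypes without IgM and from -1.01 to -0.45 for IgM in deleted cells.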

Other observations

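The probe set that the annotation assigns to both Isg15 and Gm9706 entered no test, since its signal cannot be given to 1 gene. It read 8.38, 8.57 and 7.67 on unstimulated control arrays and 8.68, 8.65 and 7.26 with IgM. In deleted cells it read 7.09, 7.31 and 7.41 without IgM and 7.55, 7.85 and 5.55 with it. All 3 unstimulated deleted arrays lay below all 3 unstimulated control arrays, and the IgM groups overlapped the unstimulated groups of their genotype.

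Deleted IgM replicate 3 departed from its 2 group mates in opposite directions for different members. Rtp4, Bst2, Xaf1, Isg20 and Ifi35 lay 2.11 to 3.44 log2 units below the mean of the other 2 arrays, while Stat2 and Samd9l lay 2.06 and 2.01 above it.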
